A study of Mus musculus with 4 samples.

Results

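The mRNAs of the core and linker histones were described in enhanced crosslinking and immunoprecipitation sequencing (eCLIP-seq) of IGF2BP3, an RNA-binding protein, in mouse testes. Members were the protein-coding genes of GENCODE M21 whose symbols begin with Hist1h to Hist4h, H2af or H3f3, or are H1f0. The rule took 79 of 21951 protein-coding genes. Of these, 67 carry a Hist symbol and are called clustered genes here, after the histone gene clusters, and the other 12 are called dispersed genes. The split follows the symbol and not the position of a gene. All samples were testes of wild type C57BL/6 mice aged 8 weeks, containing germ cells and somatic cells, crosslinked with UV light. In each of 2 replicates, RNA bound by IGF2BP3 was precipitated with an antibody to it (IP), and a size-matched input made with no antibody (SMInput) was sequenced beside it, which gives 4 libraries. The series' design text names anti-IgG and a further replicate, the sample labels name an input without antibody and were followed, and no IgG library or further replicate was analysed here. The study calls its replicates biological, but whether they came from separate animals is not given in the labels. Each P value compares the IP with the SMInput of a single replicate and speaks only of these libraries.

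Replication-dependent histone mRNAs are made in S phase from short genes without introns, and they end in a conserved stem-loop, bound by the protein SLBP, rather than in a poly(A) tail. Replacement variants such as H3.3 and H2A.Z come from genes with introns and polyadenylated mRNAs, and are made outside S phase. Male germ cells add variants of their own, among them the linker histone H1t and the core histones TH2A and TH2B, before most histones give way to transition proteins and protamines in elongating spermatids.

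For each replicate, the regions where IP reads pile up (clusters) were listed with the log2 ratio of IP to SMInput reads, each as a share of its library, and with −log10 of a P value for that ratio. A cluster was counted as called at a log2 value of at least 2 and a −log10(P) of at least 2, and it was given to a gene where its centre lay in the gene span on the same strand. The listed values correspond to 5133438 IP and 8706391 SMInput reads in replicate 1 and to 4637612 and 16696122 in replicate 2. Replicate 1 held 337234 clusters, of which 4.92% were called, and replicate 2 held 216354, of which 13.2% were called. Reads per cluster, worked out from the same values, had a median of 4 IP reads in both replicates, so most single clusters were shallow. The tissue was checked with marker genes: all 5 spermatid, 4 spermatocyte, 3 spermatogonial, 4 Sertoli cell and 4 Leydig cell markers had clusters in both replicates, and of 4 genes of other tissues (Alb, Ins2, Myh6, Krt5) 0 had any. In whole testes, fewer cells of a type and less RNA per cell cannot be told apart.

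Histone genes had clusters in about the same share as all protein-coding genes, and a called cluster in a lower share. Clusters lay in 50 members (63.3%) in replicate 1 and in 44 (55.7%) in replicate 2, against 64% and 58.5% of all protein-coding genes. There were 43 members with a cluster in both replicates, 8 in a single replicate and 28 in neither. Of members with a cluster, 11 (22%) had a called one in replicate 1, against 40.8% of all protein-coding genes with a cluster. In replicate 2 these were 12 (27.3%) against 62.8%. Of the 43 members with clusters in both, 8 (18.6%) had a called one in both, against 39.1% of all genes. These shares were not tested against each other, and the 8 genes fell to 1 with both thresholds at 3 and to 3 where a call needed 10 IP reads. Shares of all genes at these settings are not given, so the falls are not a comparison with other genes. Histone genes also held fewer clusters, a median of 2 per gene in each replicate against 12 and 9 over all genes, so fewer could be called, and the part of this in the lower share was not tested. Counted by cluster, 14 of 191 member clusters were called in replicate 1 (7.33%, above the 4.92% of all clusters) and 15 of 164 in replicate 2 (9.15%, below 13.2%), so the replicates went opposite ways.

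The deepest cluster of a gene was taken as the one with the most IP and SMInput reads together, a choice that favours clusters with many SMInput reads and so low log2 values. Its median log2 value over members was 0.76 in replicate 1 and 0.91 in replicate 2, against 1.35 and 1.36 over all protein-coding genes. With the cluster of the most IP reads alone, chosen after the data were seen, the medians were 0.94 and 1.02 over members and 2.08 and 2.11 over all genes, so members lay below all genes under both choices. Across the 43 members with a cluster in both replicates, Pearson's r between the replicates was 0.44, against 0.51 across 12312 genes; genes are not independent replicates. Among genes with a deep cluster the called share of members was also below that of all genes, under limits chosen after the values were seen. With at least 10 IP reads in the deepest cluster of both replicates, 6 of 19 members (31.6%) had a called cluster in both, against 68.1% of 4732 genes. At 20 IP reads these were 4 of 11 members against 75% of 2252 genes, and at 40 IP reads 3 of 8 against 78.8% of 928.

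**Figure D1:**
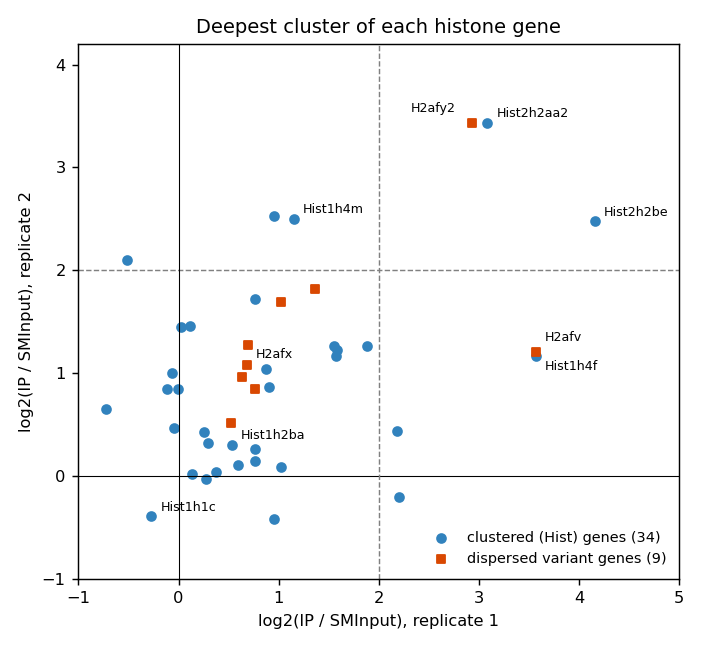
Log2 ratio of IP to SMInput reads in the deepest cluster (most IP and SMInput reads together) of each of 43 histone genes with a cluster in both replicates, replicate 1 on the x axis and replicate 2 on the y axis. Circles are 34 clustered genes and squares 9 dispersed genes, and dashed lines mark the log2 threshold of 2, which Hist2h2be, Hist2h2aa2 and H2afy2 exceed in both replicates.

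The dispersed variant genes held most of the genes called in both replicates. Of 9 dispersed genes with clusters, 7 had a called one in each replicate, 77.8% against 40.8% and 62.8% of all genes, and 6 in both, 66.7% against 39.1%: H2afx, H2afz, H2afv, H2afy2, H3f3a and H3f3b. These 6 fell to 0 with both thresholds at 3, to 2 (H2afx and H3f3b) where a call needed 10 IP reads, to 3 with an adjusted P, and to 4 with clusters centred in annotated exons alone, without H2afv and H3f3a. The 39.1% of all genes holds for the main thresholds only, so these falls are not a comparison with other genes. The dispersed genes were also deeper than most, with a median of 22 and 31 IP reads in the deepest cluster against 8 in each replicate over all genes. Among genes with a minimum depth in both replicates their share called in both was nearer to that of all genes: 5 of 6 against 68.1% at 10 IP reads, 4 of 5 against 75% at 20, and 3 of 4 against 78.8% at 40. Of the clustered genes, 4 of 41 were called in replicate 1, 5 of 35 in replicate 2, and 2 of 34 in both, Hist2h2aa2 and Hist2h2be, and at these depths 1 of 13, 0 of 6 and 0 of 4 were called in both. Dispersed genes held more clusters, a median of 10 and 8 per gene against 2 and 1 in clustered genes. Counted by cluster, 9.01% were called in dispersed and 5% in clustered genes in replicate 1, against 4.92% of all clusters. In replicate 2 these were 9.28% and 8.96%, both below the 13.2% of all clusters. By histone class, of the clustered genes with a cluster, 0 of 5 H1 genes were called in each replicate, and 0 of 4 and 0 of 2 H3 genes. Of H4 genes 1 of 11 and 3 of 10 were called, of H2A genes 1 of 8 in each, and of H2B genes 2 of 13 and 1 of 10, against the same 40.8% and 62.8%.

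**Figure D2:**
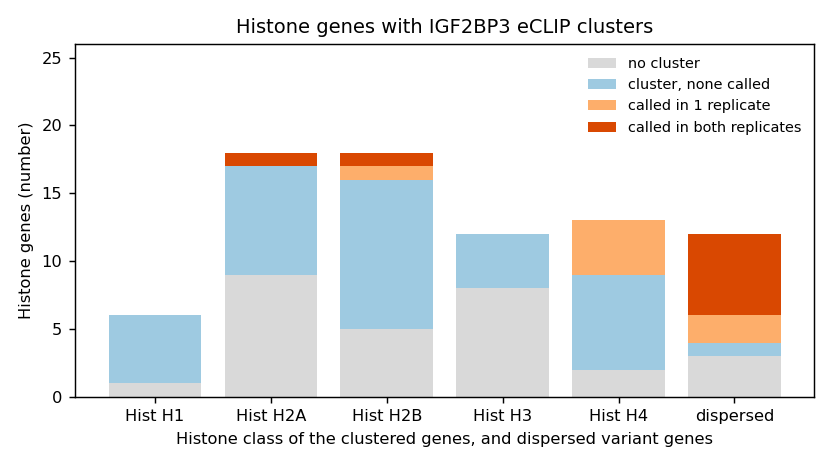
Number of histone genes (y axis) in each class of clustered genes and among the dispersed variant genes, stacked by whether they had no cluster, clusters with none called, a called cluster in 1 replicate or in both. The dispersed bar holds 6 of the 8 genes called in both replicates, and 8 of the 12 clustered H3 genes had no cluster.

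H2afx encodes H2AX, the variant that is phosphorylated around DNA breaks and over the sex chromosomes of meiotic spermatocytes. Its gene gives both a short mRNA that ends after a stem-loop and a longer polyadenylated mRNA, and it is the only dispersed member in which a stem-loop was found. Along the coding sequence its clusters were deep and little enriched. The deepest one, at chr9:44334754-44334823 in replicate 1, had 119 IP and 126 SMInput reads and a log2 value of 0.68. In replicate 2 it lay at chr9:44334832-44334982 with 141 and 241 reads and a log2 value of 1.07. Past the stem-loop, in the part that only the longer mRNA contains, the picture changed. A called cluster at chr9:44335300-44335415 had 98 IP and 35 SMInput reads in replicate 1 (log2 2.25, −log10(P) 17.3). At chr9:44335298-44335395 replicate 2 had 94 and 67 reads (log2 2.34, −log10(P) 28.3). Replicate 1 held another called cluster near the end of the gene, chr9:44335960-44335979, with 41 IP and 8 SMInput reads (log2 3.12), where replicate 2 listed none. In both replicates all called H2afx clusters therefore lay after the stem-loop, and none of the 8 and 4 clusters before it was called.

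**Figure D3:**
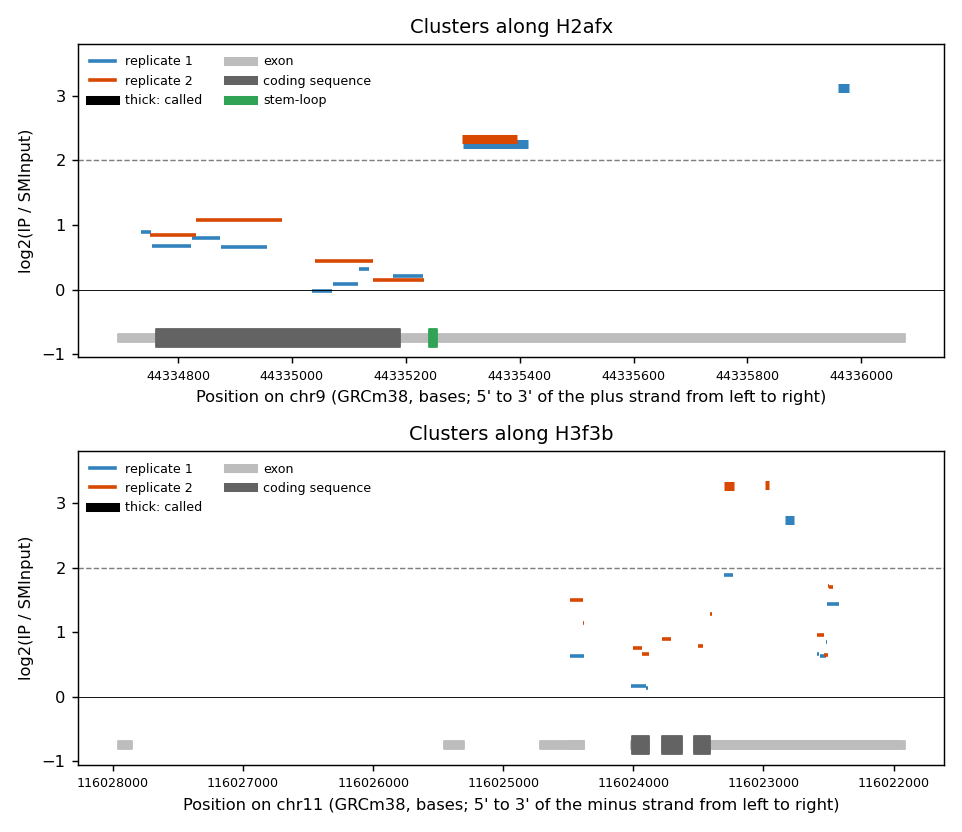
Clusters of both replicates along H2afx (upper panel) and H3f3b (lower panel), with the genomic position in bases (GRCm38) on the x axis, the log2 ratio of IP to SMInput reads on the y axis and the exons, coding sequence and stem-loop drawn below. Thick lines are called clusters. Those of H2afx lie after the stem-loop, between log2 values of 2.25 and 3.12, and those of H3f3b lie in the 3′UTR.

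H3f3a and H3f3b are separate genes for the same protein, the replacement histone H3.3. H3f3b had the deepest clusters of all members. In replicate 1 its deepest cluster, in the 3′UTR at chr11:116022521-116022569, had 210 IP and 230 SMInput reads (log2 0.63), and in replicate 2 the deepest, at chr11:116022533-116022592, had 239 and 443 (log2 0.96). More IP reads than in 99.5% and 99.4% of genes with a cluster thus went with a log2 value higher than only 27.9% and 36.1% of them. The called clusters of H3f3b lay elsewhere in the 3′UTR and at different places in the replicates. Replicate 1 had chr11:116022766-116022831 with 59 IP and 15 SMInput reads (log2 2.74). Replicate 2 had chr11:116023228-116023302 with 40 and 15 reads (log2 3.26) and chr11:116022957-116022987 with 27 and 10 reads (log2 3.28). At the first of these, replicate 1 had 35 IP and 16 SMInput reads (log2 1.89), just under the threshold. For H3f3a, replicate 1 had a pair of touching called clusters in the 3′UTR, chr1:180802687-180802743 and chr1:180802744-180802781, each listed with 24 IP and 8 SMInput reads (log2 2.35), so they may share reads. Replicate 2 covered both with a single cluster of 20 and 29 reads (log2 1.31, not called). Its own call in H3f3a was an intronic cluster of 7 IP and 5 SMInput reads (log2 2.33). The deepest H3f3a clusters were in the 5′UTR, with log2 values of 0.69 and 1.27.

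H2afz and H2afv encode the H2A.Z proteins, which mark promoters. H2afz was called in both replicates at the same 3′UTR place, chr3:137866830-137866882 with 11 IP and 4 SMInput reads in replicate 1 (log2 2.22) and chr3:137866839-137866862 with 7 and 3 reads in replicate 2 (log2 3.07). Its deepest clusters lay in the coding sequence, with 22 and 31 IP reads and log2 values of 0.52 in both replicates, and its other coding-sequence clusters had values from 0.18 to 1.05 in replicate 1 and up to 1.08 in replicate 2. H2afv was called in the 3′UTR in replicate 1 (14 IP and 2 SMInput reads, log2 3.57) and in the coding sequence (7 and 1 reads, log2 3.57). In replicate 2 its calls were a pair of intronic clusters with 4 IP reads and 1 SMInput read each (log2 3.85), and the deepest cluster, in the same part of the 3′UTR, had 16 and 25 reads and a log2 value of 1.20. H2afv was thus called in both replicates with no place in common.

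H2afy and H2afy2 encode the macroH2A proteins, which carry a large domain beside the histone fold. H2afy2 was called in the 3′UTR in each replicate, with 9 IP and 2 SMInput reads at chr10:61738837-61738917 (log2 2.93) and with 9 and 3 reads at chr10:61739125-61739205 (log2 3.43), places that do not overlap. H2afy held 34 and 36 clusters, the most of any member, and a call only in replicate 2, in the 3′UTR (24 IP and 20 SMInput reads, log2 2.11). At that place replicate 1 had 30 and 18 reads and was not called. H1f0 encodes H1.0, the linker histone of cells that have stopped dividing. It was called in replicate 1 alone, in the 3′UTR at chr15:79030273-79030304 with 15 IP and 3 SMInput reads (log2 3.08), and the cluster over that place in replicate 2 had 9 and 10 reads (log2 1.70). Of the remaining dispersed genes, H2afj had clusters of at most 4 IP reads and no call, and the X-linked H2afb1, H2afb2 and H2afb3, for short H2A variants of the testis, had no cluster.

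The 3 testis histones of the clustered genes described here, Hist1h1t, Hist1h2ba and Hist1h2aa, had deep clusters, and none was called. Hist1h1t, for H1t, the linker histone of spermatocytes and early spermatids, had 73 IP and 66 SMInput reads in its deepest cluster in replicate 1 (log2 0.91) and 52 and 103 in replicate 2 (log2 0.86). Hist1h2ba, for TH2B, had 134 and 157 reads in replicate 1 (log2 0.53) and 70 and 204 in replicate 2 (log2 0.30). Its IP reads exceeded those of 98.9% and 96.2% of genes with a cluster, and its log2 values those of 24.8% and 15.2%. Hist1h2aa, for TH2A, had 43 and 61 reads in replicate 1 (log2 0.26) and 28 and 75 in replicate 2 (log2 0.43). The highest log2 values of Hist1h1t were 1.76 in replicate 1, in a coding-sequence cluster of 18 IP and 9 SMInput reads, and 1.64 in replicate 2, in a cluster of 32 and 37 reads at chr13:23696480-23696525, which reaches the first base of the stem-loop.

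The somatic linker histones of the clusters held some of the lowest values among deepest clusters, and other clusters in them were higher. The deepest cluster of Hist1h1c had log2 values of -0.27 and -0.39, with a −log10(P) listed as 0 and at least 43 IP reads against 88 SMInput reads in replicate 1 and at least 18 against 85 in replicate 2. Other Hist1h1c clusters reached 0.76 in replicate 1 (11 IP and 11 SMInput reads) and 1.31 in replicate 2 (11 and 16 reads). For Hist1h1a the deepest cluster had 46 IP and 71 SMInput reads in replicate 1 (log2 0.14) and 49 and 174 in replicate 2 (log2 0.02). The Hist1h1a cluster with the most IP reads in replicate 2 was another, with 53 and 110 reads and a log2 value of 0.79. Hist1h1e, with a single cluster in each replicate, stood at 0.28 and -0.03. The median of the deepest clusters over the 5 clustered H1 genes with clusters, Hist1h1t included, was 0.14 in replicate 1 and 0.02 in replicate 2. With the cluster of the most IP reads it was 0.14 and 0.86, so the low value in replicate 2 depends on which cluster is taken. None of these clusters was called, and Hist1h1b had no cluster.

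Among the clustered H2A genes, 9 of 18 had no cluster. Hist3h2a was the deepest, with 85 IP and 48 SMInput reads in replicate 1 (log2 1.59) and 78 and 120 in replicate 2 (log2 1.23), but the span of Trim17 on the same strand also contains all its clusters. Hist1h2ai had log2 values of 0.38 and 0.04. Hist2h2aa2 was called in both replicates in the coding sequence, with 10 IP and 2 SMInput reads (log2 3.08) and 6 and 2 reads (log2 3.43). All 32-base words of its exon occur elsewhere in the genome, and its copy Hist2h2aa1 had no cluster, so which of the genes these reads came from is uncertain. Among the clustered H2B genes, 5 of 18 had no cluster. Hist2h2be had the highest log2 value of all called member clusters, 4.15 in replicate 1 at chr3:96222773-96222835 (21 IP and 2 SMInput reads), and 3.33 in replicate 2 at chr3:96222759-96222820 (14 and 5 reads). Both lay in its 3′UTR, centred 1261 and 1247 bases after the last amino acid codon, and no stem-loop was found in the 300 bases after that codon. Replicate 2 held another call there, with 17 and 11 reads (log2 2.48). Hist3h2ba was called in replicate 1 (19 and 7 reads, log2 2.20), while its deepest cluster in replicate 2 had a log2 value of -0.20.

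Of the clustered H3 genes, 8 of 12 had no cluster. The median log2 value of the deepest clusters was 1.05 over 4 genes in replicate 1 and 0.54 over 2 in replicate 2, from few reads. In replicate 1 it was 2.18 in Hist2h3c1 (8 IP and 3 SMInput reads, −log10(P) 1.62, not called), 1.35 in Hist1h3f, 0.76 in Hist1h3c and -0.72 in Hist1h3a, where another cluster had 0.95 (8 and 7 reads). In replicate 2 it was 0.43 in Hist2h3c1 and 0.66 in Hist1h3a. All Hist2h3c1 clusters also lie in the span of Gm20634 on the same strand. Of the 13 clustered H4 genes, 11 had clusters in replicate 1 and 10 in replicate 2, and the median log2 value of their deepest clusters was 1.14 and 1.36 (1.35 and 1.36 with the cluster of the most IP reads). Most H4 genes encode an identical protein. Hist1h4c was the deepest, with 65 IP and 37 SMInput reads (log2 1.58) and 33 and 53 reads (log2 1.16), and was not called. Hist1h4f was called in replicate 1 (7 and 1 reads, log2 3.57). Hist1h4j, Hist1h4m and Hist1h4n were called in replicate 2, with 19 and 16 reads (log2 2.10), 22 and 14 reads (log2 2.50) and 8 and 5 reads (log2 2.53). In replicate 1 their deepest clusters stood at -0.52, 1.15 and 0.95. No H4 gene was called in both replicates.

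Calls coincided at 4 places, in H2afx, H2afz, Hist2h2aa2 and Hist2h2be. They took 4 of the 14 called member clusters of replicate 1 (28.6%, against 33% of all called clusters) and 4 of the 15 of replicate 2 (26.7%, against 18.5%), near the background in both. The 30 bases around the middle of each overlap are shown because these are the histone sites that both replicates call. They are written 5′ to 3′ on the strand of the gene, from GRCm38, and capitals mark the motif GGACT, the motif TGGAC or the motif ACACA where present.

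H2afx, 3′UTR, chr9:44335332-44335361, plus strand: tcctctcccctccccgccctcgcgccactc

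H2afz, 3′UTR, chr3:137866835-137866864, plus strand: tgcttaataatcgGGACTtaccttagatct

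Hist2h2aa2, coding sequence, chr3:96240108-96240137, minus strand: caactacgcggagcgtgtgggtgccggcgc

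Hist2h2be, 3′UTR, chr3:96222781-96222810, plus strand: ggttcttagcccaagcagctgggtgcacct

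Only the H2afz site held a motif in these bases. In windows of 100 bases around the centre, read on the strand of the cluster, GGACT was in 3 of 14 called member clusters in replicate 1, against 9.92% of all called clusters, and in 1 of 15 in replicate 2, against 9.08%. TGGAC, which overlaps it in TGGACT, was in 2 of 14 against 9.64% and in 1 of 15 against 8.90%. ACACA was in 1 of 14 against 11.1% and in 0 of 15 against 10.7%. These shares rest on few clusters and were not tested. The second called H2afx cluster of replicate 1 has both overlapping motifs at its upstream edge, where TGGACT shares a single base with the cluster, in the window chr9:44335955-44335984 on the plus strand: TGGACTgagcctctggcttctgaactggaa.

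By region, clusters of the clustered genes lay mostly in the coding sequence, 61 of 80 (76.2%, Wilson 95% interval 65.9 to 84.2) in replicate 1 and 58 of 67 (86.6%, 76.4 to 92.8) in replicate 2, against 26.8% and 34.1% over all protein-coding genes. These backgrounds count intron clusters, which were 58% and 47.1% over all genes and 0% in the clustered genes. The difference is thus not one within exons alone. For all members together, 19.2% of 355 clusters lay in the 3′UTR (15.4 to 23.6), against 12.3% over all genes. Intron clusters are counted in both shares. They made up 25.1% of member clusters and 53.8% over all genes, and the part of this in the difference was not tested. The coding-sequence share of members was higher too, 51% against 29.7%. Without intron clusters, members had 68 clusters in the 3′UTR, 181 in the coding sequence and 17 in the 5′UTR. All genes had 67555, 163539 and 14717 in these regions. These counts show no higher 3′UTR share of members within exons. Called member clusters lay in the 3′UTR in 10 of 14 cases in replicate 1 (71.4%, 45.4 to 88.3) and 8 of 15 in replicate 2 (53.3%, 30.1 to 75.2), against 43.5% and 37% of called clusters in protein-coding genes, where a cluster in several genes counts for each. With intron clusters counted, the first interval lies just above its background and the second includes it. Intron clusters were 23.6% and 38.7% of the background calls and 0% and 20% of member calls. The part of this in the comparison was not tested. In exons, replicate 1 called 10 member clusters in the 3′UTR, 4 in the coding sequence and 0 in the 5′UTR. Over all genes these were 7194, 4748 and 413. In replicate 2 they were 8, 4 and 0 in members, and 10512, 5845 and 566 over all genes. Against the exon counts of all genes, the interval of replicate 1 does not lie above the background. In the dispersed genes, 9 of 10 and 6 of 9 called clusters lay in the 3′UTR. In the clustered genes 1 of 4 and 2 of 6 did (25% and 33.3%), below the background in both replicates. The higher share with intron clusters counted thus came from the dispersed genes. Touching clusters can share reads, so these intervals cover counting error only.

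Within a region, the medians of members were close to those of all genes, while called shares differed more. The median log2 value of coding-sequence clusters was 0.63 and 0.84 in clustered genes and 0.68 and 0.75 in dispersed genes, against 0.76 and 0.93 over all genes. In the 3′UTR it was 1.63 and 1.61 in clustered genes and 1.76 and 1.70 in dispersed genes, against 1.76 and 1.85. Coding-sequence clusters were thus lower than 3′UTR clusters in both kinds of histone gene and in all genes. In replicate 1, 39.1% of 23 3′UTR clusters in dispersed genes and 6.25% of 16 in clustered genes were called, against 19.4% over all genes. In replicate 2 these were 30% of 20 and 22.2% of 9, against 34.5%, so the dispersed genes lay above all genes in replicate 1 alone. Of coding-sequence clusters, 3.03% of 33 in dispersed and 4.92% of 61 in clustered genes were called in replicate 1, against 5.28%, and 0% of 29 and 6.9% of 58 in replicate 2, against 7.94%. The part that the large share of coding sequence has in the low values of the clustered genes was not tested.

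The stem-loop, searched as 6 paired bases around a loop of 4 within 300 bases after the last amino acid codon, was found in 63 of 67 clustered genes, starting a median of 33 bases after that codon. It was not found in Hist1h2an, Hist1h3g, Hist1h4a and Hist2h2be. The commonest form was that of 41 genes, Hist1h2be among them. It is shown with the form of Hist1h1t, found in 9 genes, that of Hist1h4c, found in 8, and that of H2afx, found in 1, since they are the elements that part the mRNAs with and without a poly(A) tail. Capitals mark the stem and loop, 5′ to 3′.

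Hist1h2be, chr13:23585526-23585551, minus strand: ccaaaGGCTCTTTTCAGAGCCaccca

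Hist1h1t, chr13:23696520-23696545, plus strand: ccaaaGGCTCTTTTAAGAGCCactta

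Hist1h4c, chr13:23698084-23698109, minus strand: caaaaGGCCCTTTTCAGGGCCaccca

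H2afx, chr9:44335235-44335260, plus strand: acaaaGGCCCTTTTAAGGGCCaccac

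Few clusters overlapped the stem-loop. In clustered genes with a stem-loop, 63 of 72 clusters in replicate 1 and 57 of 62 in replicate 2 were centred before the end of the last amino acid codon, and 2 and 3 overlapped the stem-loop, of which 1 was called, that of Hist1h4j in replicate 2. Centred after the stem-loop were 6 clusters of 3 genes in replicate 1 and 2 clusters of 2 genes in replicate 2, with 0 called. In 16 of these genes the stem-loop lies wholly or partly past the annotated gene end. Taking in 200 bases on either side of the genes added 0 clusters in replicate 1 and 1 in replicate 2, and no call.

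Many histone genes are near copies of each other, and how reads that match several places were treated is not given in the sources used here. Of 32-base words of the exons, a median of 37.2% occurred elsewhere in the genome in the 34 clustered genes with clusters in both replicates, and 80% in the 25 with no cluster. The part of this in the missing clusters was not tested. Hist1h1t, by contrast, had 0% repeated words, and Hist1h4m and Hist1h4n, called in replicate 2, had 91.4% and 94.2%, so their reads may be those of other H4 genes. Among the dispersed genes, repeated words made up 84.2% in H2afz (100% of its coding sequence), 30.7% in H3f3a (99% of its coding sequence) and 31.5% in H3f3b (63.2%), so reads given to them, in the coding sequence above all, may come from copies elsewhere. H2afb1, H2afb2 and H2afb3, which had no cluster, held 68.1%, 28.7% and 66.9% repeated words. The part of this in their missing clusters was not tested. Some calls rested on few reads: 3 of 14 called member clusters in replicate 1 and 7 of 15 in replicate 2 had under 10 IP reads.

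Genes for proteins that act on histones and their mRNAs were described beside the members. Of 15 genes for 3′ end processing and decay of histone mRNAs, 14 had clusters in replicate 1 and 7 of these a called one, against 40.8% of all genes with clusters. In replicate 2 these were 10 of 13, against 62.8%, and in both replicates 6 of 12, against 39.1%: Slbp, Npat, Cpsf2, Cstf2, Cstf2t and Upf1. The median log2 value of their deepest clusters was 0.65 and 1.09, against 1.35 and 1.36 over all genes, and with the cluster of the most IP reads 1.94 and 2.04, against 2.08 and 2.11. Slbp, for the stem-loop binding protein, had its highest called log2 values at 2.20 in the 3′UTR and 3.85 in an intron. The intron value, in replicate 2, rested on 4 IP reads and 1 SMInput read. The deepest clusters of Slbp stood at -0.18 and -0.36. Cstf2t, a polyadenylation factor of the testis, had 6 and 3 called clusters, with highest values of 3.41 and 2.93 in the 3′UTR. Of 29 histone chaperone genes and related factors, all with clusters in both replicates, 19 were called in replicate 1, 25 in replicate 2 and 18 in both, against the same 40.8%, 62.8% and 39.1% of all genes. Their medians were 0.46 and 0.36 for the deepest cluster and 1.25 and 1.41 for that with the most IP reads, below the 1.35 and 1.36, and the 2.08 and 2.11, of all genes. By the smaller of their highest called values the leading ones were Hira and Nap1l4 (3.85 each), and Asf1b, Cabin1, Atrx and Ep400 (3.57 each). A log2 value of 3.85 in replicate 2 with a −log10(P) of 2.04 stands for 4 IP reads and 1 SMInput read. That was the highest call there of Hira, Nap1l4, Cabin1, Atrx and Ep400. In replicate 1 the 3.57 of Atrx and Ep400, with a −log10(P) of 2.28, stands for 7 and 1. Deepest clusters stood at 0.46 and 0.08 in Hira, -0.14 and -0.55 in Nap1l4, and -0.59 and 0.35 in Cabin1. They stood at -0.65 and -0.03 in Atrx, -1.70 and -1.84 in Ep400, and 2.86 and 3.26 in Asf1b. For Asf1b, which passes H3 and H4 to other chaperones, the values were 4.67 and 3.57, both in the 3′UTR. Of 9 histone genes under other symbols, 5 had clusters in both replicates. Of these, 1 was called in replicate 1, against 40.8% of all genes, and 2 in replicate 2, against 62.8%. The 1 called in both, against 39.1%, was Hils1, a linker histone of spermatids, with values of 3.04 and 2.40 in the coding sequence. H2al2a was called in replicate 2 (log2 2.20) and not in replicate 1. Chaperone genes held a median of 33 and 20 clusters, and the processing and decay genes 19 and 14, against 12 and 9 over all genes, and the part of this in these counts was not tested.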

How the data were processed

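Per the labels and the study's methods, the authors trimmed reads with cutadapt, removed rRNA reads with Bowtie2, aligned the rest with STAR to mm10 (GRCm38), removed duplicates by molecular identifiers and called clusters with Clipper in each replicate separately. The −log10 P values (0 to 400, from a chi-square or Fisher's exact test) were deposited by the authors. The authors made the log2 values from IP and SMInput reads of the same replicate, each as a share of its library. The authors' thresholds of 2 for both were used. Reads per cluster and library totals were worked out from these values, and reads are lower bounds where the listed −log10 value is 0 or 400. This recovery of reads was tested on simulated data. For a cluster centre in several regions of a gene, 3′UTR came before coding sequence, 5′UTR and intron. No test across samples was made.

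Named were members called in both replicates, of the others the 5 with most IP reads and the 5 with the lowest log2 values in their deepest clusters, and 8 set genes, and from other lists up to 6 genes called in both; other genes named, and the depth limits of 10, 20 and 40 IP reads, were chosen after the values were seen. The members and lists were chosen with earlier results of these data known. Symplk, Zcchc6 and H2bl1 were not matched by symbol. Alternatives covered thresholds, adjusted P, gene assignment, read minimums, overlap and each replicate alone. Python 3.11.15, NumPy 2.4.6, SciPy 1.17.1 and matplotlib 3.10.9 were used.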

Additional observations from a re-analysis of the deposited data

How the results depend on the processing

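The main values were 15 histone genes called in at least 1 replicate, 8 in both, 29 called clusters, 4 shared sites, a median log2 value of 0.79 over the deepest clusters (mean of both replicates) and 19.2% of clusters in the 3′UTR. Of all 21951 protein-coding genes, 8992 were called in at least 1 replicate and 4814 in both at the main thresholds. No such counts are given for the alternatives, which therefore describe the 79 histone genes alone. With both thresholds at 3 the histone counts fell to 6 genes, 1 gene in both (Hist2h2be), 8 clusters and 1 site. With a log2 threshold of 1 they were 25 genes, 66 clusters and 12 sites, and 12 genes in both, Hist1h1t, Hist1h4c, Hist3h2a and H2afy added. An adjusted P of at most 0.05 (Benjamini-Hochberg over all clusters of a replicate) left 5 genes in both: H2afx, H3f3a, H3f3b, Hist2h2aa2 and Hist2h2be. Clusters centred in an annotated exon left 6, without H2afv and H3f3a, and at least 2 SMInput reads left 7, without H2afv. At least 10 IP reads left 3 in both (H2afx, H3f3b, Hist2h2be), 19 clusters and 2 sites. Taking the cluster with the highest log2 value gave a median of 1.30, and the cluster with the most IP reads 0.88. With each replicate alone, genes called were 11 to 12, clusters 14 to 15, sites called in that replicate 13 to 15, the median 0.76 to 0.91 and the 3′UTR share 17.7% to 20.4%; by construction fewer samples give fewer clusters, and a site then needs 1 call. Of 50 results under an alternative, 33 stayed within 1.5 times the main count, the spread between replicates or, for the 3′UTR share, its Wilson 95% interval. For the other 17 the cause was not tested. The 33 include counts of genes called in both replicates taken with each replicate alone, where a call in that replicate is enough. The extension by 200 bases, the minimum of 2 SMInput reads, the cluster with the most IP reads and the 3′UTR share of each replicate were chosen after seeing the data. No paired analysis was possible as a separate alternative, because each listed value already sets an IP against the SMInput of its own replicate. The main values are thus themselves paired by replicate, and a test across the 2 pairs was not made. With 2 replicates and few reads in most clusters, the part of sampling in calls at different places in the replicates was not tested. Not all such calls were shallow. In replicate 1, chr9:44335960-44335979 in H2afx had 41 IP and 8 SMInput reads, and chr11:116022766-116022831 in H3f3b had 59 and 15. Replicate 2 listed no cluster over either place.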
